A study of Mus musculus with 74 samples.

Results

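Poly(A) RNA of mouse quadriceps was compared between Bcl6 knockout animals and Cre-positive animals given oil. Of the 74 samples of the series, 9 belong to this comparison: 5 knockout and 4 oil libraries, taken by the column names of the 1 deposited table that holds both groups. The 5 knockouts carried AEC-Esr Cre (+):Bcl6 fl/fl and were given TMX (tamoxifen), which activates an Esr-fused Cre recombinase. The 4 oil animals had the same genotype, AEC-Esr Cre (+):Bcl6 fl/fl, and were given oil, so their floxed alleles were not exposed to tamoxifen. All 9 were C57BL/6 mice, and what both groups share is the Cre transgene and the floxed alleles. Tamoxifen and deletion differ together between the groups and cannot be told apart in this comparison. Set beside it are quadriceps of TMX-treated Bcl6 fl/fl mice without Cre, and RiboTag quadriceps of TMX-treated mice, AEC-Esr Cre (+):Bcl6 fl/fl; RiboTag (+) libraries labelled knockout and AEC-Esr Cre (+); RiboTag (+) controls. The labels used here give no promoter for the Cre, no age, sex, dose or time, and no litter or batch. Of 24940 genes in the table, 13754 had a mean deposited log2 value of at least 3.32 over the 9 libraries (a linear value of 10) and were tested.

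BCL6 is a zinc finger protein that binds DNA and represses nearby genes by recruiting corepressors such as NCOR1 and BCOR. It is best known from germinal centre B cells, and its preferred sites resemble those of STAT factors, so that feedback inhibitors of cytokine and growth hormone signalling such as Socs2 and Cish are among its known targets. In muscle, growth hormone acts through JAK2 and STAT5 to raise local IGF1, which drives protein synthesis through AKT and mTORC1, while myostatin and the ubiquitin ligases of atrophy act in the opposite direction.

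The libraries held 6.96 to 7.62 M tags (M, 1e6). The first principal component took 60.7% of the variance and separated the groups without overlap, with the 5 knockouts between -6.87 and -5.94 and the 4 oil libraries between 6.40 and 9.33. Knockout libraries lay 0.0502 to 0.0647 log2 units (root mean square over genes) from the mean of the others of their group, and oil libraries 0.0622 to 0.0761. As a check of the tissue, Ttn (titin, the giant spring of the sarcomere) and Myh4 (the fastest myosin heavy chain) averaged 13.99 and 13.91 in knockouts, against 14.28 and 14.14 in oil muscle. Whether the libraries come from separate animals rests on their P numbers alone, so p-values measure the spread between these samples. A whole-tissue level cannot tell fewer cells of a type from less RNA per cell.

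Knockout muscle differed from oil muscle in many genes, mostly by small amounts on the scale of the deposited values. At a Benjamini-Hochberg adjusted p below 0.05 (limma), 3216 of 13754 genes (23.4%) were called, 1360 raised (9.89%) and 1856 lowered (13.5%) in knockouts. At an unadjusted p below 0.05 there were 4798. In 2899 genes (21.1%) the groups did not overlap, with knockouts higher in 1309 (9.52%) and lower in 1590 (11.6%). The median size of a called change was 0.124 log2 units for raised genes and 0.155 for lowered genes. On this scale 58 raised and 63 lowered genes changed by 0.5 or more, and 6 each way by 1 or more. Called changes on the deposited values were mostly smaller than in the authors' deposited table, most of all at low levels. This did not hold for every gene: Ppp1r12b changed by -1.39 on the deposited values and by -1.25 in the authors' deposited table. In the authors' deposited table, 48 of the raised and 38 of the lowered genes reached a log2 change of 1 in size. The median ratio over called genes of the change in the authors' deposited table to that on the deposited values was 1.54, with 4.24 in the lowest of 4 equal classes of level and 1.32 in the highest. Lowered genes were longer, with a median exon length of 4408 bases, against 2675 for raised genes and 2802 for genes not called. Non-coding RNAs were called raised in 89 of 615 cases (14.5%) and lowered in 65 (10.6%).

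**Figure D1:**
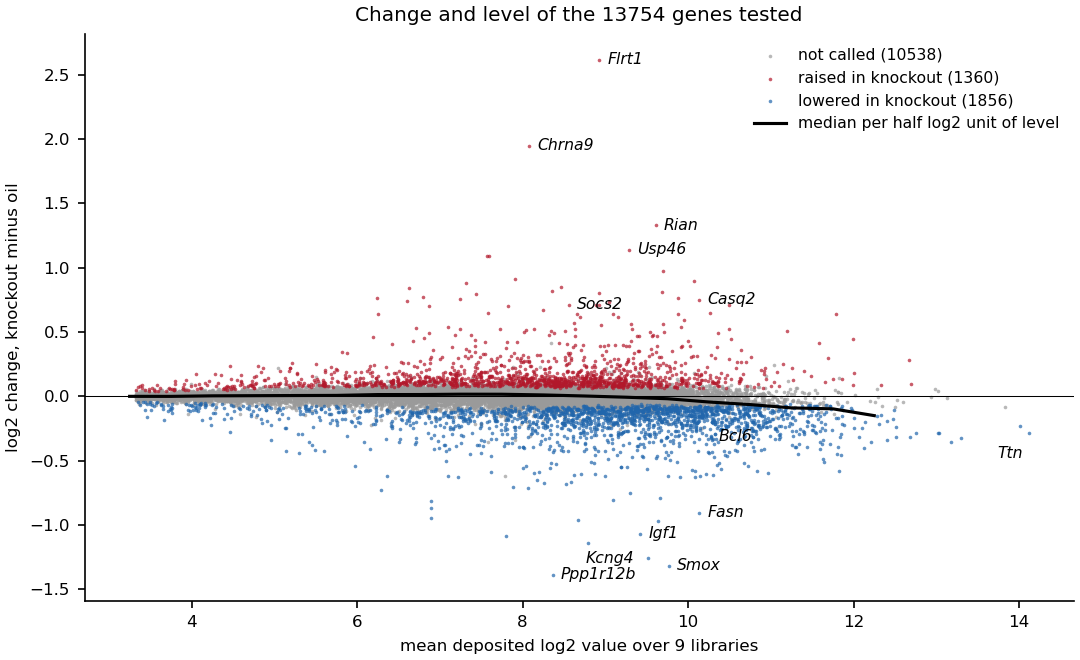
Log2 change (knockout minus oil, y axis) against the mean deposited log2 value over 9 libraries (x axis) for each of the 13754 genes tested, coloured by call, with the median change in bins of level as a black line. Flrt1 and Chrna9 stand highest, Ppp1r12b and Smox lowest, and the line falls below 0 among the genes with the highest levels, a fall that quantile normalization removes.

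The highest genes were lowered as a body, and how far depends on the scaling. Among the 100 genes with the highest levels, which include Ttn and Myh4, 11 were raised and 59 lowered on the values as deposited (median change -0.119), and 10 and 63 after centring each library on its median. After quantile normalization, which gives every library the same distribution, 31 were raised and 34 lowered, with a median of 0.00389. Of the highest 25% of genes 10.2% were raised and 28.7% lowered as deposited, against 19.8% and 17.9% after quantile normalization. Counts over lists of muscle genes are therefore given below with both scalings, and single genes with both where their call changes. Each list count below stands beside 9.89% raised and 13.5% lowered of all genes. For lists of highly expressed genes the shares of the highest 25% of genes, given above, are the nearer ones.

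Bcl6 itself was lower in knockout muscle by a small amount. Its deposited log2 values were 10.11, 10.25, 10.02, 10.28 and 10.004 in knockouts P1895, P1896, P1900, P1907 and P1911, against 10.43, 10.31, 10.52 and 10.52 in oil libraries P1897, P1904, P1905 and P1910. The groups did not overlap, although the highest knockout and the lowest oil library lay close together (log2 change -0.31, SE 0.0615, limma adjusted p = 0.00264). Against Cre-negative floxed muscle given tamoxifen Bcl6 was called lower too, with overlapping groups (-0.23, adjusted p = 0.0134). In RiboTag mRNA, from other animals, it was not lower: Bcl6 had 273.8, 248.3, 184.2 and 209.9 CPM (counts per 1e6, scaled to library size) in libraries labelled knockout, against 131.6, 317.9, 125.3 and 260.3 CPM in controls (0.14, SE 0.264, edgeR adjusted p = 0.84). The labelled knockouts there lie within the range of the controls. Values cover the whole gene, and reads of the floxed exons were not separated. Esr1, to which reads of an Esr fusion could be assigned, did not pass between the groups, which both carry the transgene (11.26 ± 0.049 in 5 knockouts and 11.24 ± 0.067 in 4 oil libraries, mean ± SD, adjusted p = 0.786). After quantile normalization Esr1 was called at 0.11 (adjusted p = 0.0167).

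Among 12 tested genes of BCL6, its relatives and its corepressors, 2 were raised and 4, Bcl6 included, lowered, with a median change of -0.056. Ncor1, a large nuclear receptor corepressor, fell by 0.27 (adjusted p = 0.00036). Zbtb16, which encodes the related BTB zinc finger protein PLZF, fell by 0.61 (adjusted p = 1.78e-05). Hdac5, a class IIa histone deacetylase, was called raised at 0.18 (adjusted p = 0.00486), though oil library P1897 (10.11) reached the lowest knockout (10.11). Bcor, the other corepressor named above, was called raised at 0.11 (adjusted p = 0.0247), but not without any one of P1895, P1900, P1911, P1904 or P1905 (adjusted p = 0.0554 to 0.0834), which left 1 raised gene in the list.

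The growth hormone and IGF1 axis changed in both directions. Socs2, an inhibitor of growth hormone signalling, stood at 8.79, 8.82, 9.08, 8.82 and 8.87 in knockouts, against 7.95, 8.23, 8.10 and 8.37 in oil muscle. Every knockout was above every oil library, and P1900 was the highest of them (log2 change 0.71, SE 0.0753, adjusted p = 2.19e-05). Igf1, the growth factor, stood at 8.89, 9.09, 8.85, 8.91 and 9.001 in knockouts, against 9.62, 10.27, 9.96 and 10.22 in oil muscle. All knockouts lay below all oil libraries, and the oil libraries were the more spread (log2 change -1.07, SE 0.106, adjusted p = 1.33e-05). Cish, a feedback inhibitor of cytokine signalling, stood at 9.20, 8.73, 9.09, 8.88 and 9.07 in knockouts, against 9.29, 9.21, 8.14 and 9.66 in oil muscle. The groups overlapped, with oil library P1905 below and the other 3 above every knockout, and the change did not pass (-0.08, adjusted p = 0.833). Without P1905 it was -0.39 (adjusted p = 0.0283).

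Of the 18 genes tested on this axis 5 were raised and 5 lowered (6 and 4 after quantile normalization), and their median change was -0.022. Other members raised beside Socs2 were Igfals, the acid-labile subunit that stabilises circulating IGF complexes (0.50, adjusted p = 2.32e-05), and Igf2, the fetal growth factor (0.43, adjusted p = 7.18e-05). Igf1r, the receptor, was raised by 0.23 (adjusted p = 0.00521), with 1 oil library level with the lowest knockout. Jak2, the kinase of the growth hormone receptor, fell to 9.54 ± 0.027 in 5 knockouts, against 9.92 ± 0.04 in 4 oil libraries (SD), and Igfbp5, an IGF binding protein, fell by 0.58 (adjusted p = 1.44e-06). Ghr, the growth hormone receptor, fell by 0.15 (adjusted p = 0.000654, but 0.0506 after quantile normalization), and Igf2r, which clears IGF2, by 0.28 (adjusted p = 0.000674).

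Downstream of the receptors Akt1 and Irs1 moved in opposite directions. Akt1, the kinase between PI3-kinase and mTORC1, stood at 10.54, 10.50, 10.57, 10.55 and 10.59 in knockouts, against 9.83, 9.91, 9.93 and 9.95 in oil muscle. The knockouts stood together well above the oil group (0.65, SE 0.0282, adjusted p = 1.22e-08). Irs1, the insulin receptor substrate, stood at 10.52, 10.60, 10.52, 10.58 and 10.66 in knockouts, against 10.86, 11.21, 11.16 and 11.39 in oil muscle. It was lower in all knockouts, with P1897 the oil library nearest to them (-0.58, SE 0.0783, adjusted p = 0.000165). Pik3ca, a catalytic subunit of PI3-kinase, rose by 0.26 (adjusted p = 2.14e-05). In all, 4 of 16 genes from the insulin receptor to AKT were raised and 6 lowered.

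Brakes on translation and on growth rose singly rather than as a list. Eif4ebp1, the repressor of cap-dependent translation that mTORC1 switches off, stood at 8.88, 8.79, 8.93, 8.87 and 8.89 in knockouts, against 8.31, 8.39, 8.25 and 8.25 in oil muscle. No oil library came near the knockouts (0.57, SE 0.0347, adjusted p = 2.19e-07). Sesn1, a sestrin that restrains mTORC1, rose by 0.34 (adjusted p = 1.06e-05), whereas Gatsl2 (-0.34, adjusted p = 0.000261), a member of the CASTOR family, and Deptor (-0.24, adjusted p = 0.00513, but 0.0526 with no level filter), an mTOR inhibitor, fell. The list had 2 raised and 2 lowered of 14, and 4 were lowered without P1910. Mstn, which encodes myostatin, stood at 9.89, 9.87, 9.99, 9.97 and 9.91 in knockouts, against 9.43, 9.45, 9.41 and 9.43 in oil muscle. The oil libraries were nearly alike and all below the knockouts (0.50, SE 0.0278, adjusted p = 1.06e-07).

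Of the other members of the myostatin and activin pathway, the ligand Gdf11 fell by 0.42 (adjusted p = 0.000195) and the receptor Acvr1b by 0.33 (adjusted p = 0.000689). In total 3 of 15 were raised and 4 lowered, with 2 lowered without any one of 5 libraries (any knockout but P1900, or oil P1904). Against Cre-negative muscle 3 of the 15 were raised and 5 lowered. Gdf11 was not called there (-0.21, limma adjusted p = 0.0561) or in RiboTag mRNA (-0.05). Fbxo32, the atrophy ubiquitin ligase atrogin-1, stood at 11.73, 11.63, 11.79, 11.86 and 11.85 in knockouts, against 11.51, 11.48, 11.34 and 11.10 in oil muscle. It was higher in every knockout, with P1910 the lowest oil library (0.42, SE 0.073, adjusted p = 0.00119). Trim63, the partner ligase MuRF1, differed by less than the spread between libraries (10.19 ± 0.082 in 5 knockouts and 10.16 ± 0.044 in 4 oil libraries, SD, adjusted p = 0.568). Of 16 atrophy genes 5 were raised and 2 lowered (7 and 1 after quantile normalization, and 1 lowered without any one library but P1897). Foxo4, a transcription factor of the atrophy programme, was raised by 0.10 (adjusted p = 0.0127) and Ubb, a polyubiquitin gene, by 0.14 (adjusted p = 0.00134).

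**Figure D2:**
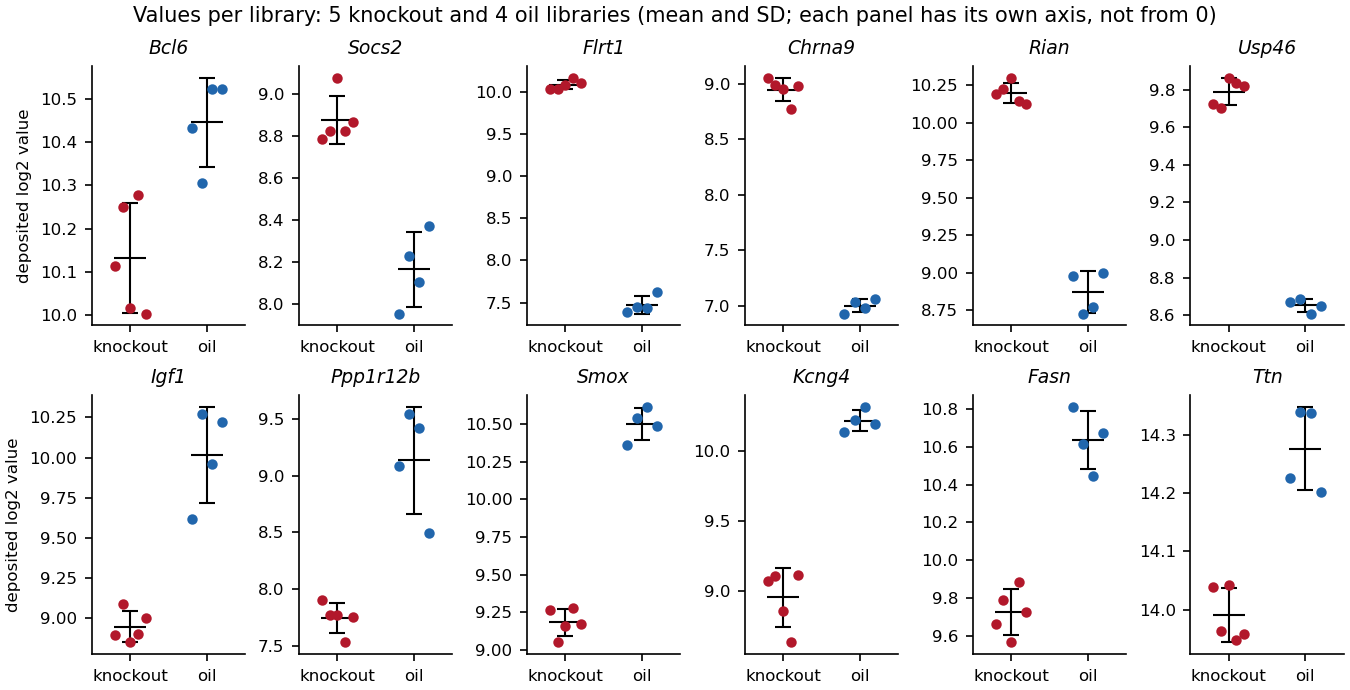
Deposited log2 value (y axis, a separate range in each panel and not from 0) of 12 genes in the 5 knockout (left) and 4 oil (right) libraries, with mean and SD. Bcl6 shows the smallest gap of the panels, while Flrt1, Chrna9, Smox and Kcng4 have groups that lie far apart relative to the spread within them.

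Flrt1 and Chrna9 changed most. Flrt1, a transmembrane ligand of the fibronectin leucine-rich repeat family, stood at 10.04, 10.04, 10.09, 10.17 and 10.11 in knockouts, against 7.39, 7.44, 7.43 and 7.63 in oil muscle (2.62, SE 0.0444, adjusted p = 1.08e-12). Chrna9, a nicotinic acetylcholine receptor subunit best known from inner ear hair cells, stood at 9.05, 8.99, 8.95, 8.77 and 8.97 in knockouts, against 6.93, 7.03, 6.98 and 7.06 in oil muscle (1.95, SE 0.0484, adjusted p = 6.75e-11). Both were high in all knockouts and low in all oil libraries. In the authors' deposited table the log2 changes of Chrna9 and Flrt1 were 4.09 and 3.74, so the transformed values give smaller changes for both. Cited1 stood at 0.84 on the transformed values and at 2.53 in the authors' deposited table.

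The same 5 knockout libraries were also set against 4 Cre-negative floxed libraries given tamoxifen, in a table transformed separately. The comparisons share the knockouts, so their values are given side by side and are not independent. In the second one 2096 of 13732 genes were called (15.3%), 830 raised (6.04%) and 1266 lowered (9.22%). Its groups did not overlap in 2089 genes (15.2%), with knockouts higher in 886 (6.45%) and lower in 1203 (8.76%). Flrt1 stood in that table at 10.39, 10.39, 10.44, 10.51 and 10.45 in knockouts, against 10.42, 10.35, 10.20 and 10.29 in Cre-negative muscle (0.12, SE 0.0399, adjusted p = 0.0535). The groups overlapped for Flrt1 there, unlike against oil. Both groups of that table had been given tamoxifen, and the part of tamoxifen in the Flrt1 difference was not tested. Chrna9 was raised in both comparisons (1.95 against oil and 1.65 against Cre-negative).

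Another set of animals gives a second readout, in which Bcl6 itself was not lower (above), so its libraries are named by their labels. In RiboTag mice, which carry a tagged ribosomal protein in Cre-active cells, 4 libraries labelled knockout (AEC-Esr Cre (+):Bcl6 fl/fl; RiboTag (+)) were set against 4 controls (AEC-Esr Cre (+); RiboTag (+)), all given tamoxifen. Their labels say polyA RNA and also list an anti-HA antibody, so whether whole muscle or pulled-down RNA was sequenced is not known here. The edgeR quasi-likelihood test called 609 of 14476 genes (4.21%), 283 raised (1.95%) and 326 lowered (2.25%). Without control replicate 2 it called 395, 209 of them lowered, and without knockout replicate 4 it called 176 raised. Flrt1 was low there, at 0.295, 1.94, 0.757 and 0.943 CPM in libraries labelled knockout, against 2.41, 1.62, 1.75 and 2.17 CPM in controls (adjusted p = 0.276). Chrna9 was at 54.6, 24.5, 25.8 and 23.6 CPM in the labelled knockouts, against 0.649, 1.12, 0.291 and 0.167 CPM in controls, and rose by 5.73 on the log2 scale (adjusted p = 1.83e-05).

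**Figure D3:**
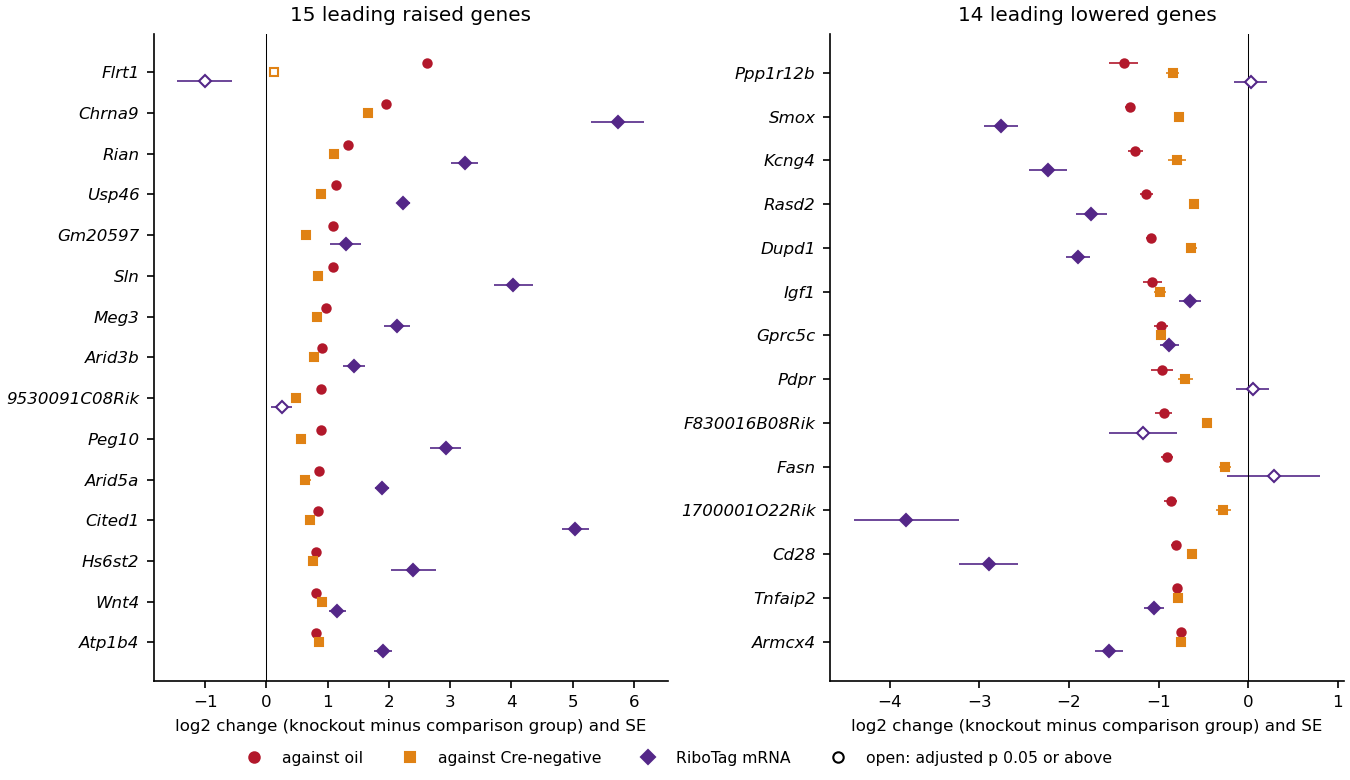
Log2 change (x axis, knockout minus comparison group, with SE) of the 15 leading raised genes (left panel) and 14 leading lowered genes (right panel) against oil, against Cre-negative muscle (the same knockouts) and in RiboTag mRNA (other animals). Open symbols have an adjusted p of 0.05 or above, and Flrt1, Ppp1r12b, Pdpr and Fasn are among the genes whose RiboTag symbol is open.

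The other leading raised genes rose by 0.80 to 1.33. Usp46, a deubiquitinase, stood at 9.72, 9.70, 9.86, 9.84 and 9.82 in knockouts, against 8.67, 8.69, 8.61 and 8.65 in oil muscle. Its groups were tight and far apart (1.14, SE 0.0348, adjusted p = 6.09e-10), and it rose by 2.23 in RiboTag mRNA. Sln, which encodes sarcolipin, a small inhibitor of the sarcoplasmic calcium pump, stood at 8.15, 8.17, 8.03, 7.81 and 8.25 in knockouts, against 6.96, 6.999, 6.94 and 7.07 in oil muscle. It was high in each knockout, with P1907 the lowest of them (1.09, SE 0.0713, adjusted p = 4.14e-07).

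Chromatin and transcription factors were among these leaders: Arid3b (0.91) and Arid5a (0.85), both AT-rich interaction domain proteins, and Cited1 (0.84), a coactivator partner of CBP and p300. Wnt4, a secreted Wnt ligand, rose by 0.81, Hs6st2, a heparan sulfate sulfotransferase, by 0.82, and Atp1b4, a muscle member of the Na,K-ATPase beta subunit family, by 0.80. Gm20597 (1.09) and 9530091C08Rik (0.89) are given without a role. All of these had groups that did not overlap. They were also raised in RiboTag mRNA (Cited1 by 5.04, Arid5a by 1.89, Arid3b by 1.43, Atp1b4 by 1.90), except 9530091C08Rik, which did not pass there (0.25).

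Leading lowered genes fell by 0.75 to 1.39. Ppp1r12b, the regulatory subunit of myosin phosphatase, stood at 7.90, 7.77, 7.77, 7.53 and 7.76 in knockouts, against 9.09, 9.54, 9.42 and 8.49 in oil muscle. It was low in every knockout and scattered among oil libraries, with P1910 nearest to the knockouts (-1.39, SE 0.163, adjusted p = 5.42e-05). Against Cre-negative muscle it fell by 0.84, and in RiboTag mRNA it did not pass (0.03). Pdpr, a regulatory subunit of pyruvate dehydrogenase phosphatase, changed by -0.96 against oil, by -0.70 against Cre-negative muscle and by 0.05 (not called) in RiboTag mRNA.

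Smox, which oxidises the polyamine spermine, stood at 9.26, 9.05, 9.16, 9.27 and 9.17 in knockouts, against 10.36, 10.54, 10.62 and 10.49 in oil muscle. Both groups were tight and well apart (-1.32, SE 0.0523, adjusted p = 5.13e-09), and Smox averaged 112.3 ± 17.0 CPM in 4 RiboTag libraries labelled knockout and 761.0 ± 210.3 CPM in 4 controls (SD), a fall by 2.76. Kcng4, a modulatory potassium channel subunit, stood at 9.07, 9.11, 8.86, 8.64 and 9.12 in knockouts, against 10.14, 10.22, 10.32 and 10.19 in oil muscle. It was low throughout the knockouts, most so in P1907 (-1.26, SE 0.0847, adjusted p = 5.48e-07).

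Signalling genes followed. Rasd2, a small GTPase, fell by 1.13, Dupd1, a dual specificity phosphatase of muscle, by 1.09, and Gprc5c, an orphan receptor, by 0.97, with oil library P1910 (10.51) above the other oil libraries (10.03 to 10.11). Cd28, known as a T cell costimulatory receptor, fell by 0.81 to 6.53 ± 0.033 in 5 knockouts, against 7.35 ± 0.12 in 4 oil libraries (SD). Cd3e, Cd3g, Cd4, Cd8a and Ms4a1, which define T and B cells, were below the level filter, and Cd28 also fell in RiboTag mRNA (-2.90). Of 10 lymphocyte markers listed only 2 were tested, Cd28 among them, and both were lowered (1 without P1904, P1905 or P1907). The part of lymphocytes in the fall of Cd28 was not tested. Tnfaip2 (-0.79), Armcx4 (-0.75), F830016B08Rik (-0.94) and 1700001O22Rik (-0.86) complete the group.

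Most of the imprinted genes listed, which are expressed from 1 parental allele, rose. In the Dlk1-Dio3 locus 4 of 6 tested genes were raised and 0 lowered, with a median change of 0.416, beside 0.00266 for all genes. Rian, a long non-coding RNA that hosts small RNAs, stood at 10.19, 10.22, 10.30, 10.14 and 10.13 in knockouts, against 8.98, 8.73, 8.77 and 8.997 in oil muscle. All knockouts were above all oil libraries (1.33, SE 0.0555, adjusted p = 8.25e-09). Meg3, the maternally expressed RNA at the head of the cluster, rose by 0.97 (adjusted p = 1.61e-09), and Mirg, which hosts microRNAs, by 0.77 (adjusted p = 1.1e-07). Rtl1, the retrotransposon-derived gene on the other strand, was called at 0.06 (adjusted p = 0.041) but not after median centring (adjusted p = 0.102) nor without any one of 6 libraries (P1900, P1907, P1911, P1897, P1904 or P1905). Dlk1 (0.02) and Begain (-0.03), at the other end, did not pass. In RiboTag mRNA the same 4 genes were raised, Meg3 by 2.14, Rian by 3.23, Mirg by 3.96 and Rtl1 by 4.16.

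Elsewhere 10 of 14 imprinted genes were raised and 0 lowered (median 0.221), a count that was also 10 under quantile normalization and median centring. Peg10, a retrotransposon-derived gene of placenta, rose by 0.88 (adjusted p = 1.13e-07), and Peg3, a zinc finger protein, by 0.56 (adjusted p = 0.000121). H19, the abundant non-coding neighbour of Igf2, stood at 12.31, 12.21, 12.03, 12.14 and 12.25 in knockouts, against 11.62, 11.77, 11.76 and 11.82 in oil muscle, with no overlap (0.45, adjusted p = 5.58e-05). Grb10, an adaptor that inhibits insulin and IGF1 receptors, rose by 0.18 and Cdkn1c, a cell cycle inhibitor, by 0.28. Imprinted genes outside these lists include Igf2r, which fell (above), and Ube3a, a ubiquitin ligase called lowered at -0.09 (adjusted p = 0.0421) but not after quantile normalization (-0.02, adjusted p = 0.65) nor without any one library other than P1896 and P1910. In RiboTag mRNA only Igf2 (0.69) and Peg10 (2.93) of the 14 were called, and H19 was not (-0.13).

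Polyamine genes fell where they moved: 5 of 12 were lowered and 0 raised, under both other scalings too, with a median of -0.042. Without any one of P1895, P1897, P1904, P1905 or P1911, 4 were lowered. Amd1, S-adenosylmethionine decarboxylase, stood at 8.94, 8.92, 8.94, 8.99 and 8.94 in knockouts, against 9.48, 9.46, 9.56 and 9.49 in oil muscle, 2 tight groups (-0.55, SE 0.0263, adjusted p = 2.48e-08). Amd2 is a near-identical copy with the same change, so their reads cannot be told apart. Azin1, the antizyme inhibitor that spares ornithine decarboxylase, fell by 0.27 (adjusted p = 0.00172). Odc1, ornithine decarboxylase itself, did not pass (-0.13, adjusted p = 0.189), except without P1907 (-0.19, adjusted p = 0.0391), while it fell in RiboTag mRNA (-1.18). The synthases Srm (0.07) and Sms (-0.01) did not pass.

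Genes of slow fibres were raised, 11 of 16 with 0 lowered and a median of 0.263, which was also the count after median centring (13 and 0 after quantile normalization). Casq2, the slow and cardiac calsequestrin, stood at 10.43, 10.50, 10.47, 10.45 and 10.45 in knockouts, against 9.84, 9.63, 9.67 and 9.71 in oil muscle. The knockouts were nearly equal and far above the oil libraries (0.75, SE 0.0365, adjusted p = 2.94e-08). Myh7, the slow myosin heavy chain, stood at 11.77, 11.93, 11.75, 11.65 and 12.01 in knockouts, against 11.56, 11.47, 11.52 and 11.55 in oil muscle (0.30, SE 0.0601, adjusted p = 0.00316), with P1907 closest to the oil group. Slow light chains and troponins rose with it: Myl2 by 0.40, Myl3 by 0.17, Tnni1 by 0.29, Tnnt1 by 0.23 and Tnnc1 by 0.19. Atp2a2, the slow calcium pump, did not pass (0.12, adjusted p = 0.0955), though it did without P1907 (0.15, adjusted p = 0.0442) and after quantile normalization (0.22, adjusted p = 0.0129). Tpm3, slow tropomyosin, did not pass either (0.11, adjusted p = 0.0518), though it did without P1900 (adjusted p = 0.0422) or P1910 (adjusted p = 0.0295) and after quantile normalization (0.13, adjusted p = 0.0406). Against Cre-negative muscle 7 members were raised, and in RiboTag mRNA 4 (Sln, Casq2, Tnni1 and Myoz2).

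Of 5 tested markers of regenerating fibres the embryonic and neonatal myosin genes Myh3 (0.42, adjusted p = 0.00134) and Myh8 (0.51, adjusted p = 0.00265) and the embryonic light chain Myl4 (0.39, adjusted p = 7.49e-06) rose under all scalings tried. Myog, the myogenic factor (0.03), and Mymk, the fusion protein (0.01), did not pass. Against Cre-negative muscle 2 of 4 tested markers were raised, Myh8 among them (0.40), while Myh3 did not pass (0.15, limma adjusted p = 0.175). In RiboTag mRNA Myh3 was raised (1.55) and Myh8 was not called (0.15). At the neuromuscular junction 5 of 19 genes were raised and 5 lowered. Chrna1, the muscle acetylcholine receptor alpha subunit, stood at 9.32, 9.36, 9.58, 9.23 and 9.37 in knockouts, against 8.74, 8.70, 8.68 and 8.82 in oil muscle, all knockouts higher (0.64, adjusted p = 5.33e-06). Rapsn, which clusters the receptor, rose by 0.14 and Gadd45a, a denervation-responsive gene, by 0.27. Ache, acetylcholinesterase, and Colq, its anchor, both fell by 0.19, and Dok7, an activator of MuSK, by 0.20 (adjusted p = 0.0109, but 0.0768 with no level filter). Chrng, the fetal receptor subunit, was below the level filter, and Musk (-0.09) did not pass. Against Cre-negative muscle 6 of the 19 junction genes were raised and 0 lowered, and in RiboTag mRNA 4 were raised and 2 lowered.

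Among 19 fast fibre genes 2 were raised and 8 lowered, but 7 raised and 6 lowered after quantile normalization. Myh2, the myosin of oxidative fast fibres, rose by 0.28 (12.79 ± 0.08 in 5 knockouts and 12.51 ± 0.023 in 4 oil libraries, SD). Myh4 fell by 0.23 and lost its call under quantile normalization (adjusted p = 1.0), as did Ttn. Ttn stood at 14.04, 13.96, 14.04, 13.95 and 13.96 in knockouts, against 14.23, 14.34, 14.34 and 14.20 in oil muscle, without overlap (-0.29, SE 0.0354, adjusted p = 8.12e-05). Among Z-disc genes 3 of 16 were raised and 8 lowered, against 3 and 3 after quantile normalization, and 1 was raised without P1895, P1907 or P1910. Neb, the thin filament ruler nebulin, fell by 0.32 but did not pass after quantile normalization (-0.03, adjusted p = 0.319). Acta1, skeletal actin, did not pass as deposited (-0.01, adjusted p = 0.866) and was raised after quantile normalization (0.20, adjusted p = 0.000161).

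Excitation and energy genes showed the same dependence. Of 23 genes of calcium handling and excitation 3 were raised and 14 lowered, against 6 and 6 after quantile normalization, and 5 were raised without P1910. Scn4a, the muscle sodium channel, fell by 0.39 (adjusted p = 2.81e-05). In glycolysis 2 of 22 were raised and 11 lowered (5 and 7), in glycogen metabolism 0 of 16 and 8 (3 and 3), and in the tricarboxylic acid cycle with pyruvate entry 2 of 23 and 13 (5 and 2), the numbers in parentheses being those after quantile normalization. Respiratory chain subunits were lowered in 9 of 46 cases and raised in 0 (2 and 2 after quantile normalization), and proteasome subunits in 0 of 31 either way (5 raised after quantile normalization, and 1 raised without P1910).

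Some members stood out from these lists in the same direction under each scaling. Fbp2, the muscle fructose bisphosphatase, which runs against glycolysis, stood at 9.22, 9.13, 9.28, 9.25 and 9.14 in knockouts, against 8.50, 8.55, 8.47 and 8.46 in oil muscle. Its groups were far apart (0.71, SE 0.0344, adjusted p = 2.94e-08). Idh2, the mitochondrial NADP-dependent isocitrate dehydrogenase, stood at 10.74, 10.71, 10.73, 10.70 and 10.77 in knockouts, against 10.24, 10.19, 10.14 and 10.24 in oil muscle, again without overlap (0.53, SE 0.0263, adjusted p = 3.72e-08). Phka1, a regulatory subunit of phosphorylase kinase, fell by 0.45 (adjusted p = 1.66e-06). Ldha, lactate dehydrogenase, and Pkm, pyruvate kinase, both fell by 0.23 and remained called in every alternative tried. Esrrb, an orphan nuclear receptor related to regulators of oxidative metabolism, rose by 0.67 (8.54 ± 0.14 in 5 knockouts and 7.87 ± 0.094 in 4 oil libraries, SD, adjusted p = 8.99e-06).

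**Figure D4:**
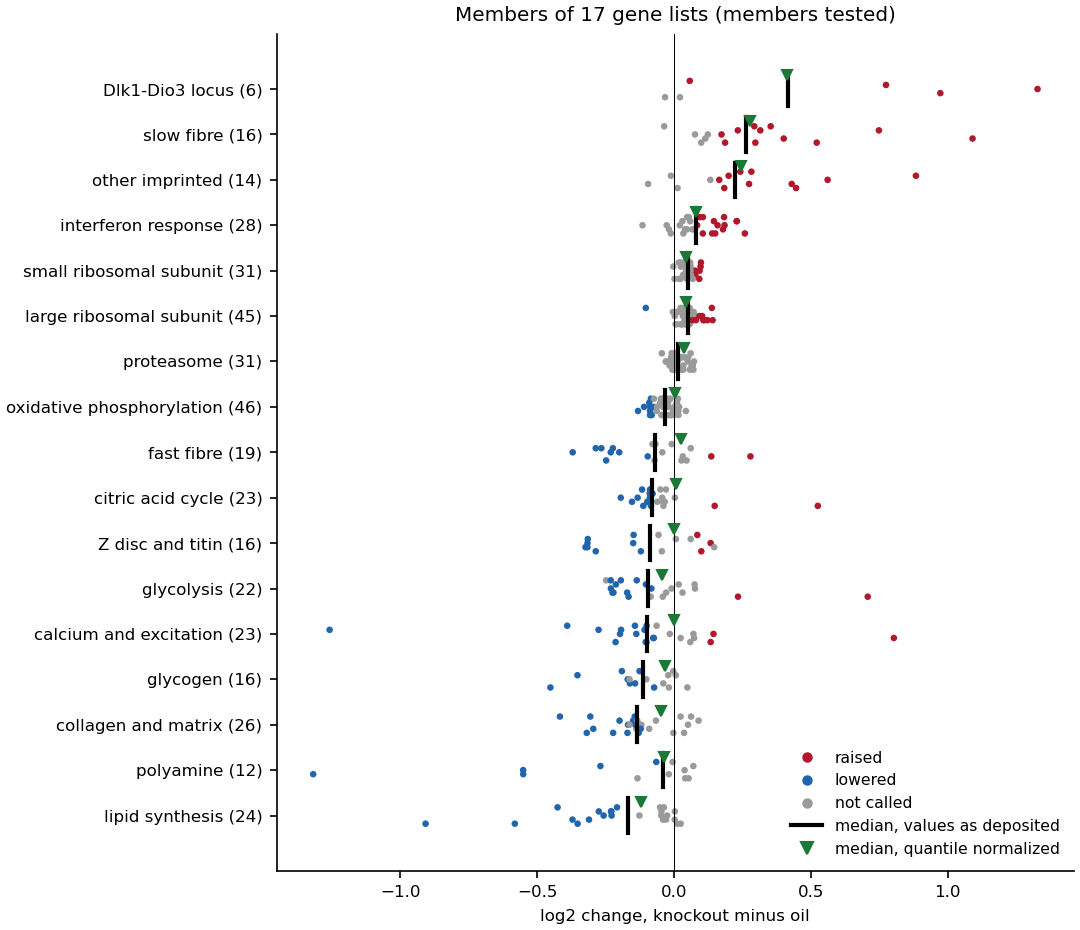
Log2 change (x axis, knockout minus oil) of each tested member of 17 gene lists, coloured by call, with the list median on the values as deposited (black bar) and after quantile normalization (green triangle). Slow fibre, imprinted and interferon medians lie above 0 and lipid synthesis below 0 under both, while for fast fibre, citric acid cycle, Z disc, oxidative phosphorylation and calcium lists the triangle stands near or above 0.

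Lipid synthesis genes were lowered: 12 of 24 fell and 0 rose (median -0.167), 11 and 0 after quantile normalization and 12 and 0 after median centring, and 12 without each library in turn. Fasn, fatty acid synthase, stood at 9.67, 9.79, 9.57, 9.88 and 9.73 in knockouts, against 10.81, 10.62, 10.44 and 10.67 in oil muscle. It was low in all knockouts (-0.91, SE 0.0695, adjusted p = 1.68e-06). Scd1, stearoyl-CoA desaturase, stood at 10.62, 10.69, 10.63, 10.49 and 10.60 in knockouts, against 11.22, 11.07, 10.78 and 11.05 in oil muscle, with P1905 the lowest oil library (-0.43, adjusted p = 0.000615). The carboxylase gene Acaca fell by 0.37, Acly, which makes cytosolic acetyl-CoA, by 0.28, Srebf1, the transcription factor of lipogenesis, by 0.21, and Lpin1, a phosphatidate phosphatase, by 0.35. The sterol genes named here did not pass (Hmgcs1 -0.05, Sqle 0.01, Srebf2 0.02).

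The comparison with Cre-negative muscle gave these genes other values. Against Cre-negative muscle 7 of the 24 fell, with a median of -0.049, and Fasn stood in that table at 9.55, 9.67, 9.46, 9.76 and 9.61 in knockouts, against 9.64, 9.99, 9.89 and 9.96 in Cre-negative muscle. The groups overlapped at the Cre-negative library P1898 (-0.26, adjusted p = 0.0235). Scd1 (-0.04), Acaca (-0.09), Acly (-0.07) and Srebf1 (-0.01) did not pass there. In RiboTag mRNA 1 of the list, Lpin1, was lowered (-0.94), and Fasn did not pass (0.28). Fat cell markers Adipoq (-0.14), Plin1 (-0.08) and Cfd (-0.06) did not pass against oil, and their part in the lipid result was not tested. The summed level of 10 adipocyte markers was 6060 to 6670 in knockouts and 4460 to 5290 in oil muscle, led by Car3, which muscle also makes (0.64, adjusted p = 1.17e-06). Without P1905, 6 of the adipocyte markers were lowered and 1 raised, with Adipoq at -0.20 (adjusted p = 0.00874) and Plin1 at -0.15 (adjusted p = 0.0481).

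Interferon response genes were slightly raised, 14 of 28 with 0 lowered and a median of 0.079 (12 and 0 under either other scaling, 9 without P1904). Ifit1, an interferon-induced RNA-binding protein, stood at 6.67, 6.60, 6.61, 6.76 and 6.73 in knockouts, against 6.32, 6.42, 6.45 and 6.47 in oil muscle. The groups did not overlap (0.26, SE 0.0405, adjusted p = 0.000523). Irf7, a transcription factor of the response, and Gbp3, a guanylate-binding GTPase, both rose by 0.23, and Ifit3 by 0.18. Class I antigen presentation genes B2m (-0.01), H2-K1 (-0.02) and H2-D1 (-0.03) did not pass. Against Cre-negative muscle 1 of the list was raised and 1 lowered, and in RiboTag mRNA 0 were called, with Ifit1 at 0.07 and -0.07.

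Collagen and matrix genes were lowered in 13 of 26 cases and raised in 0, but in 4 with 1 raised after quantile normalization. The count ran from 5 to 19 with 1 library left out: 7 without P1896 or P1900, 5 without P1905 and 6 without P1910. Col6a3, a collagen VI chain, stood at 10.76, 10.74, 10.52, 10.66 and 10.80 in knockouts, against 10.87, 11.14, 11.33 and 11.11 in oil muscle. All knockouts were lower, with P1897 the nearest oil library (-0.42, adjusted p = 0.00172). Lamc1, a laminin chain, fell by 0.31 (adjusted p = 5.85e-05) and Fn1, fibronectin, by 0.30 (adjusted p = 0.00421, but 0.0503 with no level filter). RiboTag mRNA had 0 of the 26 called. Fibroblast markers were lowered in 2 of 10 cases and raised in 0, against 0 lowered and 1 raised after quantile normalization. With 1 library left out, 0 to 3 of them were lowered. Among them Pdgfra (-0.01) and Dcn (-0.03) did not pass.

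Ribosomal protein genes moved by small amounts. In the large subunit 9 of 45 were raised and 1, the muscle paralogue Rpl3l, lowered (7 and 1 after median centring, 9 and 0 after quantile normalization), and in the small subunit 6 of 31 were raised and 0 lowered (3 after median centring). Rpl27a had the smallest p (7.91 ± 0.02 in 5 knockouts and 7.76 ± 0.019 in 4 oil libraries, SD, 0.14, adjusted p = 0.000878). The small subunit count fell to 2 without P1900 or P1907, to 3 without P1897 or P1904 and to 1 without P1905. Against Cre-negative muscle 1 of the 45 large subunit genes and 0 of the 31 small subunit genes were raised, and 0 of either lowered. RiboTag mRNA had 0 of 45 and 0 of 28 called.

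Counts in other lists stand beside 9.89% of all genes raised and 13.5% lowered. Stc2, a secreted glycoprotein induced by cell stress, rose by 0.70 (adjusted p = 9.52e-06), and Atf5, a stress-responsive factor, by 0.22, among 3 raised and 1 lowered of 15 stress response genes (3 lowered without P1897). Myc, the growth-related transcription factor, rose by 0.52 (adjusted p = 9.21e-06), and Dusp1, a phosphatase of MAP kinases, fell by 0.28, while Fos (-0.06), Egr1 (0.13) and Jun (0.02) did not pass. Nrip1, a corepressor that estrogen induces in other tissues, rose by 0.40 (adjusted p = 0.00021), and Greb1 (-0.00), a classical estrogen target, did not pass at a low mean level of 3.84. Pdk4 (-0.40, adjusted p = 0.0185) and Ucp3 (-0.37, adjusted p = 0.00181), genes that muscle raises with fatty acid use, were lowered among 5 of 28 oxidation genes (2 raised), with 9 lowered without P1900 and 3 without P1904 or P1910. After quantile normalization 4 of the 28 were raised and 1 lowered. Against Cre-negative muscle 3 were raised and 0 lowered, and Ucp3 did not pass there (-0.12, limma adjusted p = 0.335). Pdk4 had overlapping groups and was not called without P1904 (adjusted p = 0.0593) or P1910 (adjusted p = 0.0517), nor after quantile normalization (-0.29, adjusted p = 0.0856). Of 15 amino acid transporters 4 were raised and 4 lowered (4 and 3 after quantile normalization, and 2 to 4 each way with 1 library left out). Slc43a2, a transporter of large neutral amino acids, rose by 0.47 (adjusted p = 1.06e-05).

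Markers of other cell types differed from list to list, beside 9.89% of all genes raised and 13.5% lowered. Of 8 Schwann cell markers 3 were raised and 0 lowered (2 to 5 raised with 1 library left out). Of endothelial markers 1 of 12 was raised and 1 lowered, but 0 either way without any one of P1895, P1904 or P1905, 0 raised without P1896, P1907 or P1911, and 0 lowered without P1900. Of macrophage markers 1 of 12 was raised, which was so in the fits without P1905 or P1907 and in no other that left out 1 library, and 1 was lowered without P1910. Of smooth muscle markers 2 of 10 were lowered (3 without P1904 or P1910, and 1 raised without P1897 or P1910). The summed level of endothelial markers was 8540 to 8790 in knockouts and 8550 to 8890 in oil muscle, and that of macrophage markers 3040 to 3280 in knockouts and 2990 to 3380 in oil muscle. Of 7 tested erythroid markers, globin genes and Alas2 among them, 6 were raised (3 without P1904 or P1910) and Bpgm, which makes the red cell regulator of haemoglobin, was lowered (-0.13, adjusted p = 0.00794). Hba-a1 and Hba-a2 are near-identical copies, and both lost their raised call without any one of P1904, P1907 or P1910 (adjusted p = 0.0501 to 0.0617). The summed level of the 9 erythroid markers listed, Bpgm included, was 1490 to 1570 in knockouts and 1520 to 1570 in oil muscle. Of 8 markers of satellite cells and myoblasts 3 were raised and 0 lowered (2 to 3 raised with 1 library left out). Of these 8, Pax7 stood at -0.01 (not called), and Myod1 (0.14) and Cdh15 (0.18) were raised. Against Cre-negative muscle 0 of the 7 erythroid markers were raised and 1 lowered, 0 of the 8 satellite cell and myoblast markers were called, and 1 of the 8 Schwann cell markers was raised. In RiboTag mRNA 1 satellite cell and myoblast marker was raised, and 0 erythroid and 0 Schwann cell markers were called. The part of these cell types in the results above was not tested.

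Position was a readout that the comparison did not use. The next tested gene on the chromosome was called in the same direction for 246 of 1359 raised genes (18.1%, beside 9.89% of all genes, and 17.9% with genes of identical values counted once, a check added after seeing the data) and for 369 of 1853 lowered genes (19.9%, beside 13.5%). Rian, Meg3, Mirg and Rtl1 lie in a run of raised genes at 6 separate positions on chromosome 12, from 109544541 to 110278068 (mm10), and 7 lowered genes that include Tnfaip2 follow from 110889264 to 111455018. Usp46 stands in a run of raised genes on chromosome 5 with Dancr (0.10) and Rasl11b (0.65), a small GTPase, whereas Sgcb (-0.13), the next tested gene on its other side, fell (not called after quantile normalization, -0.05). Beside Socs2 lie Cradd (0.38) and 5730420D15Rik (0.08), whose start is 518 bp away, both raised. Flrt1 overlaps Macrod1 (0.10, raised), and Otub1 (0.21), its other neighbour, was raised too. Tags of both strands were counted, so overlapping and antisense genes cannot be told apart, and runs of neighbours may share reads.

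A list of BCL6 peaks from chromatin immunoprecipitation, made by the authors from 1 library without replicate, gives a readout of binding. It holds 10925 peaks with a median score of 23.3 (the authors' own score, of unnamed scale) and a highest of 1204.2. A peak lay within 1000 bp of the start of 245 of 1360 raised genes (18.0%), 238 of 1856 lowered genes (12.8%) and 1149 of 10538 genes not called (10.9%). Of the 200 raised genes with the largest change 24.0% had one, and of the 200 such lowered genes 13.5%. Among genes above the median level the shares were 19.8% of raised, 14.9% of lowered and 14.0% of other genes, and no test was run on them.

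Socs2 held the peak with the highest score of the list (1204.2, its centre 49 bp before the start). Cish, not called here, had 715.4 (25 bp after the start), Igfals 154.4 (601 bp before), Casq2 and Esrrb 121.3 each (445 and 185 bp before), and Fbp2 84.5 (156 bp before). Among lowered genes Igf1 had a peak of 35.5, 852 bp before its start. Fbxo32 (20.8, 281 bp before), Stc2 (22.1, 32 bp before) and Usp46 (39.2, 609 bp before) were raised genes with lower scores.

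Promoter sequences of genes with a strong peak close to the start are shown for 2 raised genes and for Cish, to set the bases under a peak beside the RNA call. They are from RefSeq (GRCm38.p6), printed 5′ to 3′ on the strand of the gene, and capitals mark each match to TTCNNNGAA, a palindrome of 9 bases shared by STAT and BCL6 sites. Esrrb is chr12:86360867-86361116 (plus strand), Fbp2 chr13:62858401-62858650 (minus strand), both the 250 bases before the start, and Cish chr9:107296529-107296678 (plus strand), 130 bases before to 20 after the first transcribed base.
Esrrb: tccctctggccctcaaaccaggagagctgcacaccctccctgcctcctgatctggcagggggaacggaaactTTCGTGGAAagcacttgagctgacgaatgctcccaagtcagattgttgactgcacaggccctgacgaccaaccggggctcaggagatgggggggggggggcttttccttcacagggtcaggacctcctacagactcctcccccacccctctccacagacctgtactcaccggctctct
Fbp2: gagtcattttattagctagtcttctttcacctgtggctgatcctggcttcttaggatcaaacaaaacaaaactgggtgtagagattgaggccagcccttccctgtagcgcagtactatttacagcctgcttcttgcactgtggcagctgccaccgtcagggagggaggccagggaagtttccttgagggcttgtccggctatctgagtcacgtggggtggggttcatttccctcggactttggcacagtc
Cish: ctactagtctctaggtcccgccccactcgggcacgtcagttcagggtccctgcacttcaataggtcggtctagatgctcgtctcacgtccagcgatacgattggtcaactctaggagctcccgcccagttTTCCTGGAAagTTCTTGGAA

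Esrrb holds 1 match, whose first base lies 178 bases before the start, Fbp2 holds 0 in this window, and Cish holds 2, of which the first begins at the start base and the other 11 bases on. Across all 32851 promoter windows of 300 bases in the table, TTCNNNGAA was found in 8.3%, the sequence being its own reverse complement so that both strands are read at once. Where a BCL6 peak centre lay in the window, the match was present for 10 of 68 raised genes (14.7%), 15 of 59 lowered genes (25.4%) and 66 of 340 genes not called (19.4%). TTCCTAGAA, 1 of the sequences it covers, was searched on both strands and found in 0.411% of all windows. No sequence was held for Socs2.

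**Figure D5:**
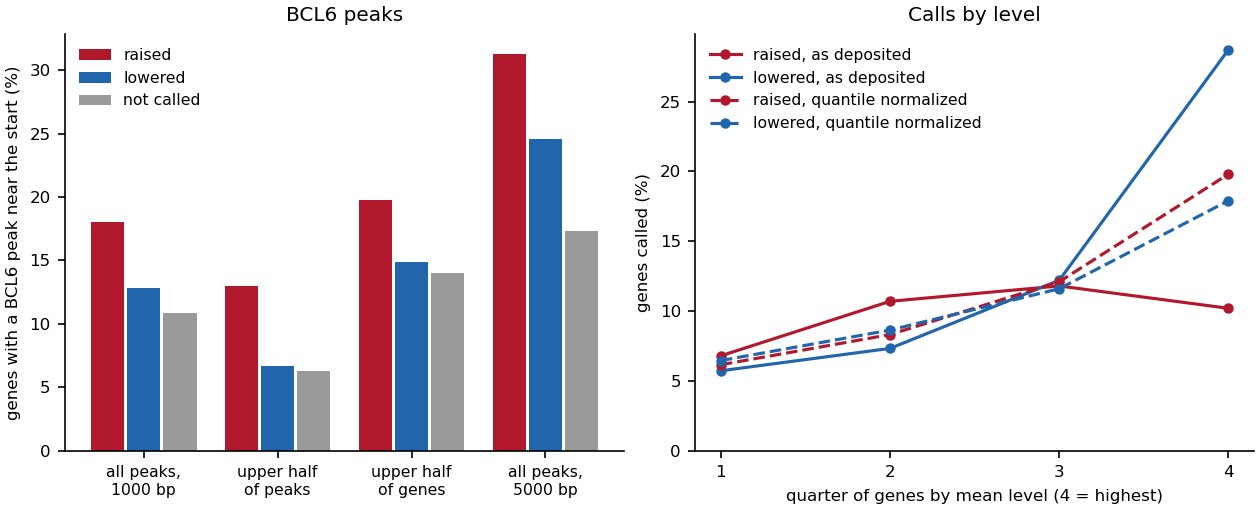
Left, the share of raised, lowered and not called genes (y axis, percent) with a BCL6 peak near the start, for all peaks within 1000 bp, peaks above the median score, genes above the median level, and all peaks within 5000 bp. Right, the share of genes raised and lowered (y axis, percent) by 4 equal classes of mean level (x axis), as deposited and after quantile normalization; lowered genes reach 28.7% of the highest class as deposited and 17.9% after quantile normalization.

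RiboTag mRNA, from other animals in which controls and labelled knockouts were both given tamoxifen, was read across all genes called against oil. Of 1347 raised genes tested in both, 191 (14.2%) were raised there and 4 lowered, and 1158 had a change above 0 (median 0.197). Without RiboTag knockout replicate 4, 127 were raised in both. Of 1839 lowered genes, 263 (14.3%) were lowered there and 2 raised, and 1542 had a change below 0 (median -0.204). Without RiboTag control replicate 2, 170 were lowered in both. Among 10412 genes not called against oil, 0.643% were raised and 0.471% lowered in RiboTag mRNA. Seen from that side, 191 of 260 raised RiboTag genes (73.5%) and 263 of 316 lowered ones (83.2%) were called the same way against oil.

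The 6 genes called in opposite directions were Zfp521 (0.17 against oil, -0.44 in RiboTag mRNA), Fam78b (0.31, -0.74), Gpr146 (0.17, -0.79), Sbk2 (0.16, -1.56), Dusp1 (-0.28, 0.45) and Kcnc4 (-0.20, 0.46). They are named because of these values, and Fam78b, Gpr146 and Sbk2, whose groups overlapped, lost their calls in several fits. Sbk2 was not called without P1904 (adjusted p = 0.054), Gpr146 without any one of P1895, P1897, P1904, P1905, P1907 or P1911 (adjusted p = 0.0552 to 0.096), and Fam78b without any one of P1896, P1897, P1905, P1907 or P1911 (adjusted p = 0.0674 to 0.0831). With no level filter none of the 3 was called (adjusted p = 0.0841 to 0.178), and with a robust variance prior neither Gpr146 (adjusted p = 0.0569) nor Fam78b (adjusted p = 0.0733). Immediate early genes, which respond within minutes to handling, were raised in 6 of 20 cases in RiboTag mRNA, with Fos at 2.45 and Fosb at 1.99, and Fos stood at -0.06 against oil.

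Many genes called against oil were not called against Cre-negative muscle. Of 1360 raised genes tested in both, 621 (45.7%) were raised there and 7 lowered. Of 1842 lowered genes, 1070 (58.1%) were lowered there and 1 raised. The change had the same sign in 1291 and 1818 of them. Examples with clear changes against oil and no call there are given next, beside Flrt1. Triobp, an actin-bundling protein, stood at 9.88, 9.92, 9.93, 10.03 and 9.98 in knockouts, against 9.36, 9.39, 9.42 and 9.37 in oil muscle (0.56, adjusted p = 6.23e-08). In the other table it was 10.01 ± 0.054 in 5 knockouts and 9.94 ± 0.11 in 4 Cre-negative libraries (SD, 0.07, adjusted p = 0.385). Gpx3, an extracellular glutathione peroxidase, stood at 10.59, 10.50, 10.56, 10.56 and 10.67 in knockouts, against 10.03, 10.19, 10.09 and 10.02 in oil muscle (0.49, adjusted p = 2.34e-06), and did not pass against Cre-negative muscle (-0.04, adjusted p = 0.531). Neither passed in RiboTag mRNA (Triobp 0.01, Gpx3 -0.05). Casr, the calcium-sensing receptor, was lowered against oil (-0.54, adjusted p = 0.000533) and not called against Cre-negative muscle (-0.11). A test of the difference between the comparisons was not run, since the tables were transformed separately and share the knockouts.

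The authors' deposited table for this comparison gives 2327 of the tested genes an adjusted p below 0.05. Of these, 2302 (98.9%) were called here, all with the same sign, and they make up 71.6% of the calls here.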

How the data were processed

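Libraries were made with a stranded poly(A) kit, and tags were counted on both strands, per the file headers. The submitters' processing notes name STAR 2.4.0, Bowtie 1.2, HOMER, DESeq2 1.14.1 and mm10. The authors deposited log2 expression values per gene for the knockout and oil libraries from HOMER, per the file headers, with a transform that is not named, and with their own log2 fold changes and adjusted p-values. RiboTag mRNA was deposited by the authors as raw counts per gene. BCL6 peaks were deposited by the authors with a score of unnamed scale.

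Here limma 3.58.1 (trended variance prior, no covariate) was fitted in R 4.3.3 to the deposited log2 values of the 9 libraries, for genes with a mean of at least 3.32, and p-values were adjusted by Benjamini-Hochberg over all tested genes. The Cre-negative table was fitted alone in the same way. RiboTag counts (6499561 to 13045854 per library) went into a quasi-likelihood fit of edgeR 4.0.16 (TMM scaling, filterByExpr with a minimum count of 10), with DESeq2 1.42.0 as an alternative. Depth is known from tag totals, and the transformed values give no counting interval. Alternatives were the level filter, quantile normalization, median centring, other variance priors and leaving out each library.

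On simulated data with 200 changed genes the limma fit recovered 86.6% of changes of 0.25 and 100% of changes of 0.5 against oil, and 3.05% of its calls were unchanged genes. The simulated noise was normal and drawn separately for each gene, with no shift shared between genes. These shares therefore do not cover the dependence on level and scaling described above. The edgeR test recovered 28.4%, 67.2% and 92.4% of changes of 0.5, 1 and 2 in RiboTag mRNA. Peaks were assigned to a gene when their centre lay within 1000 bp of its start. Summed levels of marker lists are sums of linear values (2 to the power of the log2 value). Members and gene lists were chosen with earlier results of these data known. Genes named are 10 fixed genes, the 15 raised and 15 lowered genes with the largest change among those with a mean level of at least 5 and no overlap, up to 5 called and 3 other genes of each list, and chromosome neighbours. Igf1r, Igf2r, Ube3a, Ghr, Bcor, Myh7, Myl3, Tnni1, Tnnt1, Tnnc1, Colq, Dok7, Musk, Gadd45a, Grb10, Scd1, Acly, Sqle, Srebf2, Srm, Adipoq, Plin1, B2m, Pdgfra, Pdk4, Fos, Fosb, Egr1, Greb1, Triobp, Gpx3, Casr, the erythroid gene Hba-a2 and the genes called in opposite directions fall outside that rule and were chosen after their values were seen. Some genes that the rule selects are not reported here. Ribosome footprints and other samples of the series were not used here.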

Additional observations from a re-analysis of the deposited data

Results flagged for a closer look

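Among 133 genes chosen by rule and named above or below, 266 groups of 4 or 5 libraries were searched for a library far from the others of its group (Dixon's criterion), and 10 were found, while chance alone gives about 1 in 20 groups. Socs2 in knockout P1900 (9.08) stood above the other knockouts, and Tpm3 in knockout P1911 (9.36) likewise. Ubb in knockout P1896 (8.74) and Myl4 in knockout P1907 (7.47) stood below the other knockouts. Gprc5c in oil library P1910 (10.51) was above the other oil libraries. Cited1 (6.08) and Nrip1 (8.83) in oil library P1897, Srebf1 (10.39) and Pax7 (6.47) in oil library P1904, and Gatsl2 (9.71) in oil library P1910 were below the other oil libraries. No library held more than 2 of the 10.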

How the results depend on the processing

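Against oil, the calls numbered 3216, and 2589 to 3094 with each library left out (1052 to 1272 raised, 1529 to 1822 lowered). Quantile normalization gave 3129 (1596 raised, 1533 lowered), sharing 1232 raised and 1450 lowered calls, with 6 genes called the opposite way, and median centring gave 3238 (1097 and 2141). Of 214 called genes among the 360 chosen by rule and kept here, 159 were called under all 15 alternatives. Quantile normalization left 99 list members lowered, against 174 as deposited. Among the 360 genes, and counting only those called before or after it, quantile normalization turned 14 to a change above 0: Pdk2 0.062, Lpl 0.0064, Gsn 0.11, Mef2c 0.038, Ndufs1 0.0104, Ugp2 0.084, Ctbp1 0.056, Atp5b 0.068, Atp5a1 0.044, Eif4g1 0.016, Gaa 0.10, Eif4g2 0.077, Acta1 0.20 and Eef1a2 0.055. The cause was not tested. With no level filter the Cre-negative comparison had 1387 calls, 533 raised, since more genes were tested. DESeq2 called 958 RiboTag genes, 571 lowered, of which 423 were lowered against oil. Leaving out 1 RiboTag library gave 395 to 826 calls (176 to 343 raised, 209 to 483 lowered), with 127 to 199 raised in both and 170 to 352 lowered in both. Within 5000 bp a BCL6 peak lay near 31.3% of raised, 24.6% of lowered and 17.3% of other genes, and with peaks above the median score near 6.68% of lowered and 6.26% of other genes. Other alternatives kept direction and call of the counts above. No paired analysis was possible because the labels number animals, and no number is shared between the groups compared. Counting both strands, an unnamed transform and the lack of a group with tamoxifen and intact Bcl6 in this table limit what single genes show.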

Other observations

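Lysosomal and autophagy genes moved by small amounts: 4 of 17 were raised and 1 lowered (7 and 1 after quantile normalization). Ctsd, the lysosomal protease cathepsin D, stood at 11.34, 11.33, 11.38, 11.39 and 11.35 in knockouts, against 11.11, 11.15, 11.16 and 11.13 in oil muscle, without overlap (0.22, limma adjusted p = 1.61e-05). Tfeb, the transcription factor of lysosome genes, rose by 0.17 (adjusted p = 0.000488), and Bnip3, a mitophagy receptor, fell by 0.15 (adjusted p = 0.00103).

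Of 16 genes of the PPAR and PGC1 network 2 were raised and 3 lowered, near the shares of all genes (9.89% and 13.5%). Tfam, which packages and transcribes mitochondrial DNA, stood at 9.70, 9.78, 9.71, 9.74 and 9.76 in knockouts, against 9.48, 9.52, 9.48 and 9.46 in oil muscle, all knockouts higher (0.25, adjusted p = 8.99e-06), and did not pass against Cre-negative muscle (0.04) or in RiboTag mRNA (0.05). Esrra, the orphan receptor related to Esrrb, fell by 0.15 (adjusted p = 0.000654). Among clock genes 1 of 18 was raised, Rora, a nuclear receptor (0.22, adjusted p = 0.000581; 3 were raised without P1897 or P1911), and 4 were lowered, with Tef, a PAR bZIP factor, at -0.19 (adjusted p = 0.000651). Tsc22d3, the glucocorticoid-induced leucine zipper, fell by 0.36 (adjusted p = 0.00104), with all knockouts (9.75 to 10.02) below all oil libraries (10.09 to 10.41). Mylk4, a muscle kinase of the myosin light chain kinase family, fell by 0.37 (adjusted p = 0.000288), beside Mylk2, the skeletal myosin light chain kinase, which rose by 0.14 (adjusted p = 0.00712).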
